A study of Mus musculus with 18 samples.

Results

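In wild-type mouse Brunner's glands, 128 of 17204 measured genes had a lower signal 6 h after exendin-4 and were back near the untreated signal by 18 h. They were chosen from the deposited log2 values of the 9 wild-type arrays by 3 conditions: a 6 h mean at least 0.7 below the untreated mean (1.62-fold), all 3 arrays at 6 h below all 3 untreated arrays, and an 18 h mean within 0.4 of the untreated mean. A mean over all 18 arrays of at least 5 was also required. The fall and the return are therefore properties of the choice, and are given below as a description with no test. The 9 knockout arrays entered the choice only through the mean level, so the knockout changes are the measurements that bear on the 128 genes separately from how they were found.

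Each of the 18 arrays held RNA of laser-captured Brunner's glands from 1 male CD-1 mouse. Groups of 3 mice were wild-type untreated, wild-type 6 h after exendin-4, wild-type 18 h after exendin-4, and the same 3 conditions in GLP-1R-/- mice, called knockouts here. The labels name untreated mice as the only controls, with no vehicle-injected or time-matched group, so the agonist, the handling and the hour of collection cannot be told apart within a genotype. The labels give neither the dose nor the age of the mice.

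Brunner's glands lie in the submucosa of the duodenum and secrete mucus and bicarbonate that shield the gut wall from gastric acid. The GLP-1 receptor is a Gs-coupled receptor that raises cyclic AMP when bound by glucagon-like peptide 1 or by exendin-4, a longer-lived peptide agonist. A receptor of this kind commonly drives brief waves of transcription, since its second messenger and several of its target genes feed back on it, and transcripts with a short half-life can fall and recover within hours. In a receptor knockout the same injection leaves out whatever acts through that receptor.

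Every gene in the table is headed by an Ensembl mouse identifier. Neither the table nor the reference tables used here pair these identifiers with symbols, so what the 128 genes do, their promoter sequences and any cell type markers were not analysed here. Only the 2 members with the largest falls are given by identifier, and others by their rank. In microdissected tissue, fewer cells of a type and less RNA per cell cannot be told apart. Across genes, pairs of arrays correlated between 0.970 and 0.995, apart from replicate 13 of the knockouts at 6 h, whose pairs were between 0.945 and 0.966. Results that rest on replicate 13 are given with and without it.

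The conditions were met in steps. A 6 h difference of at most -0.7 was found for 204 genes, and in 173 of them the groups also lay apart. Of these, 170 reached the minimum level. At 18 h, 128 of the 170 were within 0.4 of the untreated mean, 20 were still more than 0.4 below it and 22 were more than 0.4 above it. The same conditions with the sign turned chose 145 genes that were raised at 6 h and back by 18 h.

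**Figure D1:**
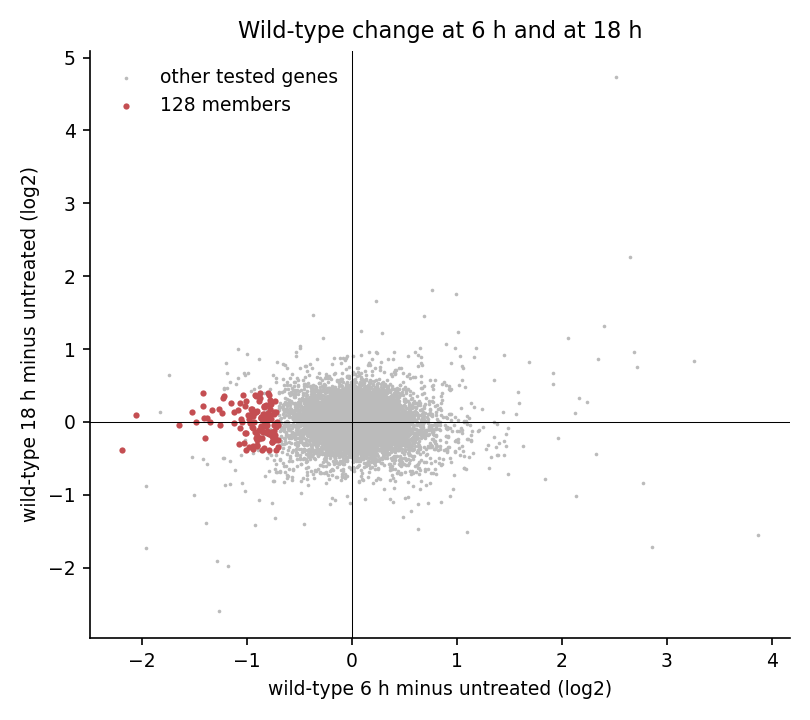
Each point is 1 of 12775 tested genes, placed by its wild-type change at 6 h on the x axis and at 18 h on the y axis, both as log2 differences from untreated mice. The 128 members (red) fill a band left of -0.7 and within 0.4 of 0 at 18 h, as the choice requires, and share untreated arrays on both axes.

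The falls were moderate in size. At 6 h the median of the 128 members was -0.87 on the log2 scale, or 1.83-fold lower, with quartiles of -1.01 and -0.80. The signal fell by at least 2-fold in 33 members and by less in 95. The largest difference was -2.19, and the smallest was -0.70. At 18 h the median difference from untreated was 0.0018, with 65 members above 0 and 63 below.

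The genes at the edge of the threshold differed little across it. The 3 members just inside had 6 h differences of -0.703, -0.703 and -0.707, and the 3 genes just outside that met every other condition had -0.699, -0.698 and -0.696.

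Array by array, the wild-type pattern was even. The median log2 level of the members was 8.19, 8.03 and 8.18 in untreated replicates 1, 2 and 19. It was 7.11, 7.18 and 7.15 in 6 h replicates 7, 8 and 9, and 8.21, 8.16 and 8.16 in 18 h replicates 10, 11 and 12. All 3 of the 6 h arrays were low, and the 18 h arrays were within the range of the untreated arrays or just above it. Gene by gene, all 3 arrays at 18 h lay above all 3 at 6 h for 116 of the 128 members (90.6%, against 18.3% of tested genes), and in 12 members (9.38%, against 16.4%) the 18 h arrays lay wholly to one side of the untreated ones. These arrays chose the genes, so nothing is read from either count.

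**Figure D2:**
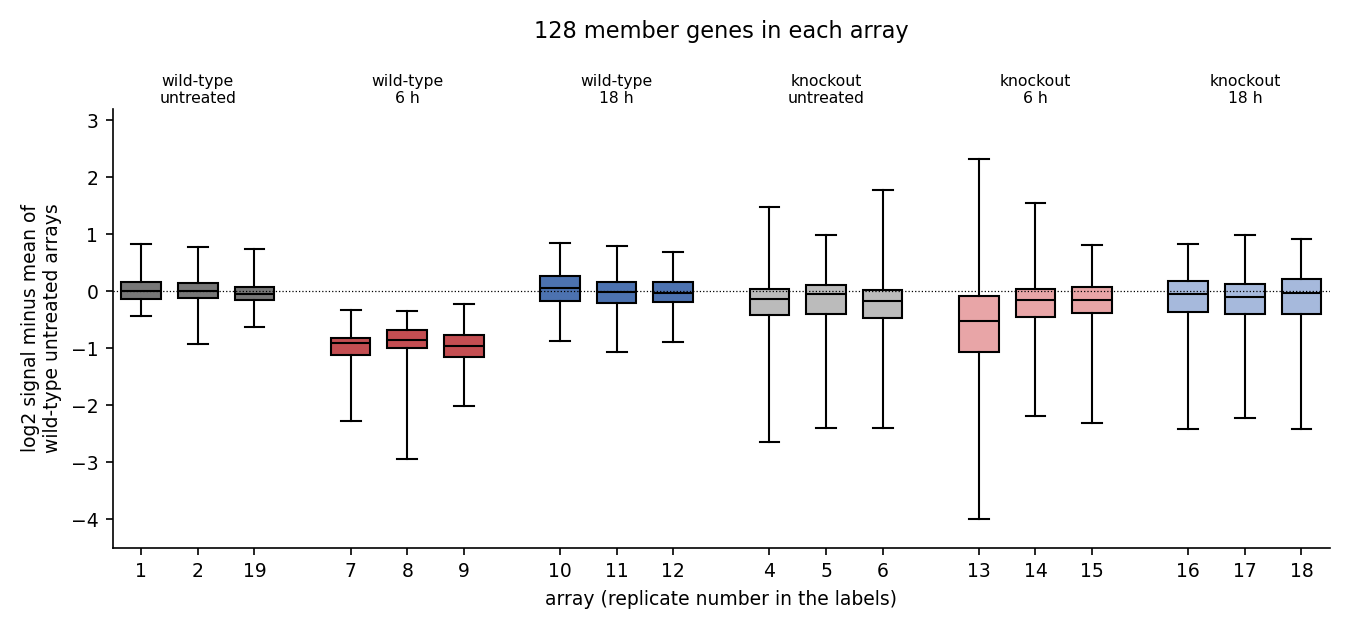
Box plots show the 128 members in each array as log2 signal minus the wild-type untreated mean of the same gene, with boxes for the quartiles, a line for the median and whiskers to the lowest and highest gene. The medians are between -0.95 and -0.84 in the 3 wild-type 6 h arrays, between -0.17 and -0.02 in 8 knockout arrays, and at -0.52 in knockout 6 h replicate 13.

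Falls were also read for lists chosen again without some of the arrays. The choice was repeated 9 times, each time without 1 untreated and 1 wild-type 6 h array, and the change was then read in those left-out arrays. The 9 lists held 131 to 196 genes, of which 90 to 108 were among the 128. The values that follow belong to these lists and not to the 128, since each left-out array had a part in choosing the 128. The median change in the left-out arrays was between -0.79 and -0.53 and averaged -0.68, against -0.87 in the arrays that chose the 128. Between 84.0% and 95.4% of a list's genes were lower in the left-out 6 h array than in the left-out untreated array. The same share over all tested genes was not computed, so nothing is read from these percentages. Single arrays differed as a whole: 66.2%, 37.5% and 44.2% of tested genes were below the untreated mean in untreated replicates 1, 2 and 19. The lists were chosen on overlapping sets of arrays, and no test is attached. The fall in the left-out arrays was under 0.87 for each of the 9 lists, and the smallest values belonged to the lists that left out 6 h replicate 8.

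The members were brighter than the usual tested gene. Their untreated wild-type level had a median of 8.13 and ran from 5.72 to 12.4, against a median of 6.79 over the 12775 genes that passed the filter on dim genes, and all 128 members passed it. The minimum level in the rule took out few genes: 173 met the conditions at 6 h, and 170 of them reached it. Why the members were brighter was not tested. Of the members, 26 had an untreated level under 7, 67 between 7 and 9, and 35 of 9 or more. The median fall hardly varied over these 3 classes, at -0.88, -0.87 and -0.86. For 1 member the 6 h mean was under 4.79, the level used in the filter.

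In the linear model fitted to all genes with limma, 95 of the 128 were called in wild-type mice at 6 h (adjusted p under 0.05), where 1.46% of all tested genes were called lower and 3.39% in either direction. That contrast chose the genes, so nothing is read from this count. At 18 h, where 0.196% of tested genes were called in either direction, 0 of the 128 were called, as the 18 h window favours.

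The largest fall was that of ENSMUSG00000033826. Its log2 signal was 10.8, 9.31 and 10.5 in untreated wild-type replicates 1, 2 and 19, and 7.92, 7.24 and 8.82 in 6 h replicates 7, 8 and 9. At 18 h it was 9.89, 9.89 and 9.59. The 3 arrays at 6 h were below all others of the wild type, and the 18 h arrays were inside the untreated range. In knockouts it was 7.53, 8.09 and 8.34 untreated, 7.967, 8.0003 and 7.872 at 6 h, and 7.76, 7.95 and 7.76 at 18 h. All 9 knockout arrays lay within the range of the wild-type 6 h arrays, 7.24 to 8.82. The untreated means were 7.99 ± 0.416 in knockouts and 10.2 ± 0.773 in wild-type mice (SD, n = 3 for both). The gene was picked for high untreated and low 6 h wild-type arrays, so this nearness is only a description. By limma, the change from untreated to 6 h in knockouts was -0.04 (SE 0.351, 95% interval -0.78 to 0.70, adjusted p = 0.971), an interval wide enough to hold a fall of 0.7.

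The second largest fall belonged to ENSMUSG00000033715, which was dim throughout. Its log2 signal was 6.01, 5.73 and 5.42 in untreated wild-type replicates 1, 2 and 19, and 5.64, 6.26 and 5.52 at 18 h. At 6 h it was 3.45, 3.82 and 3.72, under the filter level of 4.79, where RMA does not separate a weak transcript from a missing one. Unlike the gene before it, its level in untreated knockouts was near that of untreated wild-type mice, at 5.57, 6.14 and 5.66. In knockouts at 6 h it was 4.43, 5.81 and 6.12 in replicates 13, 14 and 15, the low value being replicate 13. At 18 h it was 5.64, 5.20 and 5.15 in replicates 16, 17 and 18, and replicates 17 and 18 were below every untreated wild-type array. In limma the change from untreated to 6 h in knockouts was -0.34 (SE 0.328, 95% interval -1.03 to 0.35, adjusted p = 0.695), and 0.17 without replicate 13 (adjusted p = 0.973).

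**Figure D3:**
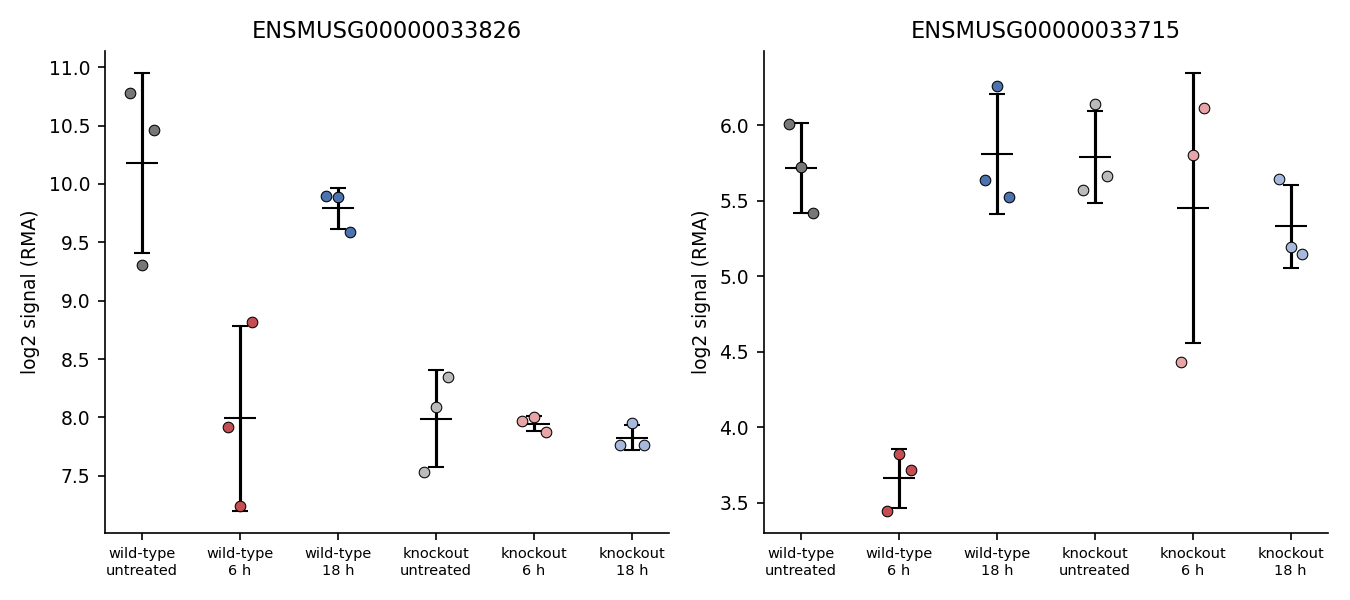
Points are the 3 arrays of each group, with the mean and SD as bars, on a log2 axis that does not start at 0. ENSMUSG00000033826 is between 7.53 and 8.34 in all 9 knockout arrays, below every wild-type untreated and 18 h array, while ENSMUSG00000033715 is low in wild-type mice at 6 h (3.45 to 3.82).

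The members ranked 3 and 5 by their fall resembled the second in that untreated knockouts were near untreated wild-type mice. The member of rank 3 was at 8.15, 7.98 and 7.91 in untreated wild-type mice, 6.22, 6.33 and 6.55 at 6 h, and 7.91, 7.88 and 8.10 at 18 h. In knockouts it was at 7.21, 7.97 and 8.09 untreated and 7.38, 7.92 and 7.72 at 6 h, groups that overlap. The member of rank 5 was at 8.91, 8.16 and 8.37 in untreated wild-type mice and 7.01, 6.84 and 7.14 at 6 h. Its knockout arrays were at 8.15, 8.97 and 8.71 untreated and 8.13, 8.49 and 8.73 at 6 h, again with overlap.

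The member of rank 4 was brighter and varied more between mice. It was at 11.5, 12.6 and 11.3 in untreated wild-type mice, 9.73, 9.99 and 11.1 at 6 h, and 11.1, 12.5 and 12.2 at 18 h. Like the first, it was low in untreated knockouts, at 10.7, 9.76 and 9.40, and at 6 h it was at 7.81, 10.9 and 10.7, the lowest of these being replicate 13.

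Knockout mice were given the same agonist, and their changes were tested within the knockouts only. The difference in change between the genotypes was not tested, so a lack of calls does not tell whether the fall needs the receptor. No member passed the test in the knockouts. At 6 h against untreated knockouts limma called 0 of the 128, with a percent called of 0.0 over all 12775 tested genes, and the smallest adjusted p of a member was 0.595. At 18 h it again called 0 members and 0.0 percent of tested genes (smallest adjusted p of a member 0.801), and likewise between 18 h and 6 h (0.237). With limma's array weights, which give replicate 13 little weight, 8 members and 455 of the 12775 genes were called between 18 h and 6 h, the 8 all higher at 18 h. At an unadjusted p under 0.05, 10 members were lower and 6 higher at 6 h, or 7.81% and 4.69%, where 3.59% and 4.54% of all tested genes were lower and higher. At 18 h, 3 members were lower and 8 higher (2.34% and 6.25%, against 3.02% and 2.12%), and between 18 h and 6 h, 2 were lower at 18 h and 25 higher (1.56% and 19.5%, against 5.32% and 3.61%). With replicate 13 left out of the fit, which 12706 genes then entered, 6 members were lower and 2 higher at 6 h (4.69% and 1.56%, against 2.55% and 2.6%). At 18 h the counts were then 5 and 13 (3.91% and 10.2%, against 4.92% and 4.56%), and between 18 h and 6 h they were 4 and 13 (3.12% and 10.2%, against 4.88% and 5.02%).

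The conditions of the wild-type fall were also counted in the knockouts. A 6 h mean at least 0.7 below untreated knockouts with groups apart was found for 0 of the 128 and for 0.243% of tested genes, and without replicate 13 for 1 member (0.781%) and 0.297%. A knockout fall of 0.7 or more without regard to overlap was found for 2 members (1.56%, against 0.712%), and for 1 without replicate 13 (0.781%, against 0.517%). Shares this small over all genes leave nothing to be read from such counts among 128. Groups lay apart with 6 h lower in 10 members (7.81%, against 3.9% of tested genes) and with 6 h higher in 6 (4.69%, against 5.37%). Without replicate 13 these were 17 members lower (13.3%, against 10.1%) and 14 higher (10.9%, against 11.8%), the shares rising on both sides because 2 arrays overlap less often with 3 than 3 arrays do.

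The members leaned lower in knockouts at 6 h, and this lean rested on replicate 13. The median knockout change was -0.15, with 90 of 128 members below 0 (70.3%), while over all tested genes the median was 0.039 and 43.3% were below 0. Measured against untreated knockouts, the median of the members was -0.36 in replicate 13, -0.021 in replicate 14 and 0.0043 in replicate 15. Without replicate 13 the median over the 128 was 0.0016, beside 0.0092 over all tested genes. Below 0 were then 63 members (49.2%, against 47.5% of tested genes). In replicate 13 the median of all tested genes was 0.12 higher than in untreated knockouts, so the members and the array as a whole differed in opposite directions there. The knockout change varied with level: over tested genes of an untreated wild-type level under 7, from 7 to 9, and of 9 or more, its median was 0.090, -0.026 and -0.080, and over the members of these classes it was -0.15, -0.17 and -0.13. Without replicate 13 it was -0.0099, 0.024 and 0.065 over tested genes and -0.060, -0.022 and 0.043 over members. The part of replicate 13's level dependence in the lean was not tested.

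**Figure D4:**
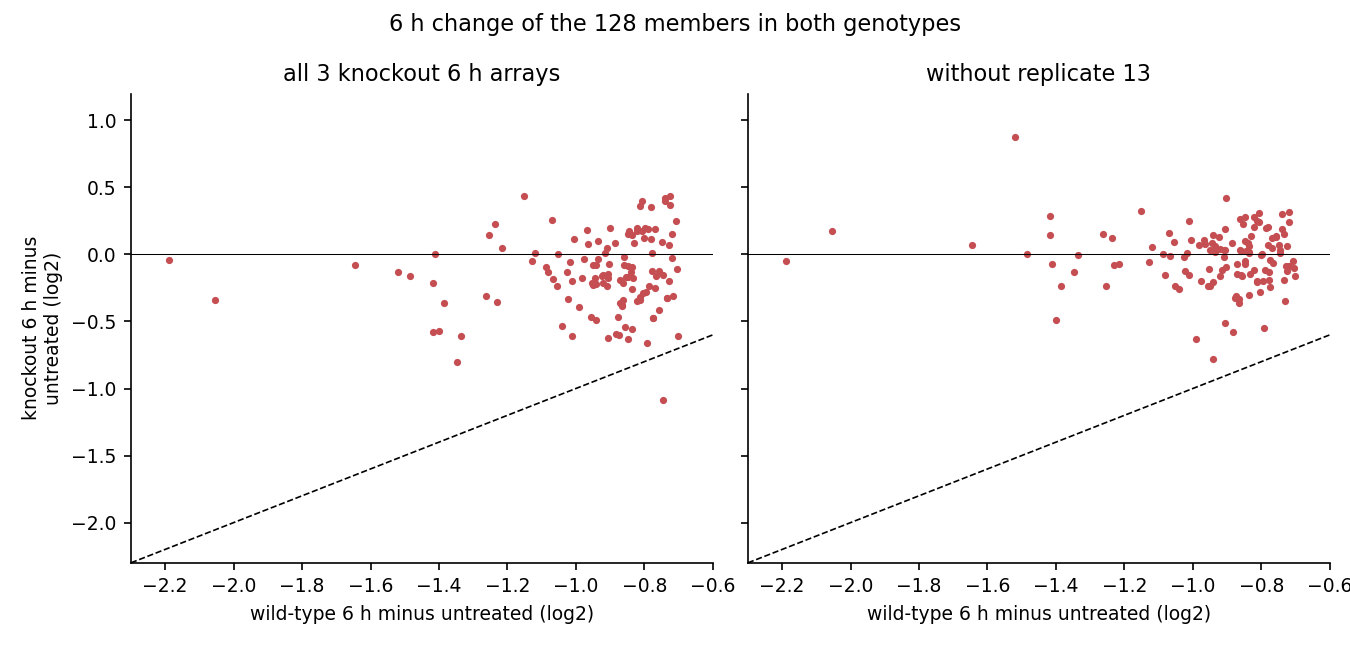
Each point is 1 of the 128 members, with its wild-type change at 6 h on the x axis and its knockout change at 6 h on the y axis, as log2 differences from untreated mice of the same genotype. Equal changes would lie on the dashed line; 1 member is below it with all 3 knockout arrays, 0 without replicate 13, and the points of the panel without it spread around 0.

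Intervals for the knockout change at 6 h came from the limma fit, which shares its estimate of the spread over all 6 groups. The standard error of a member's knockout change at 6 h had a median of 0.202 and ran from 0.118 to 0.657. The 95% interval stayed above -0.7 for 79 members and reached it for 49. Without replicate 13 it stayed above -0.7 for 108 and reached it for 20. The interval held both 0 and -0.7 for 39 members with all arrays and for 14 without replicate 13, and for those the arrays cannot tell a fall of 0.7 from none. The same counts over all tested genes were not computed, so nothing particular to the members is read from them. The members' median SD was 0.317 in knockouts at 6 h (0.105 without replicate 13), against 0.163 to 0.205 in the other groups. With all arrays, the intervals do not allow for that greater spread.

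The extremes among the members show the part of replicate 13 in single genes. The member with the lowest knockout change at 6 h, -1.08, was at 8.60, 8.77 and 8.81 in untreated knockouts, at 8.69 and 8.79 in replicates 14 and 15, and at 5.46 in replicate 13. The next lowest, at -0.80, was at 8.06, 7.21 and 6.70 untreated and at 5.18, 7.21 and 7.18 at 6 h in replicates 13, 14 and 15. The one after it, at -0.66, was lower in all 3 arrays: 6.16, 6.35 and 5.63 untreated against 5.16, 5.47 and 5.52 at 6 h. The groups overlap in the 2 lowest and do not in the last of these. The highest change, 0.44, belonged to a member at 7.56, 8.39 and 8.39 untreated and at 8.77, 8.25 and 8.62 at 6 h. The next highest, 0.43, was at 7.58, 7.63 and 7.91 untreated and at 9.25, 7.45 and 7.71 in replicates 13, 14 and 15. Without replicate 13 its change was -0.12. The one after it, at 0.42, was at 5.69, 5.76 and 5.75 untreated and at 6.63, 5.85 and 6.00 at 6 h. Its change was 0.19 without replicate 13.

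Across the 128 members, the wild-type and knockout changes at 6 h, which share no arrays, had a Pearson r of 0.121 and a Spearman rho of 0.136. Without replicate 13 these were -0.078 and 0.030. Genes are not independent replicates, the wild-type changes cover a range cut at -0.7, and no test is attached.

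At 18 h the members lay slightly above untreated knockouts. The median change was 0.096, while over all tested genes it was 0.017. Above 0 were 84 members and below 0 were 44 (34.4%, against 46.0% of tested genes). The medians against untreated knockouts were 0.11, 0.051 and 0.11 in replicates 16, 17 and 18, so all 3 arrays were on one side, by less than 0.12. Groups lay apart with 18 h higher in 20 members (15.6%, against 9.21% of tested genes) and with 18 h lower in 6 (4.69%, against 7.3%).

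The step from 6 h to 18 h in knockouts pointed the same way as in the wild type but was small. The median of the members was 0.18, and 0.093 without replicate 13, beside -0.024 and 0.0027 over all tested genes. Above 0 were 96 members with all arrays and 83 without replicate 13. Groups lay apart with 18 h higher in 29 members (22.7%, against 5.5%) and with 18 h lower in 4 (3.12%, against 7.77%). Without replicate 13 the counts were 35 (27.3%, against 16.8%) and 11 (8.59%, against 17.1%). The 145 genes raised at 6 h and back by 18 h in the wild type had a median of -0.061 in this knockout contrast, and -0.16 without replicate 13.

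**Figure D5:**
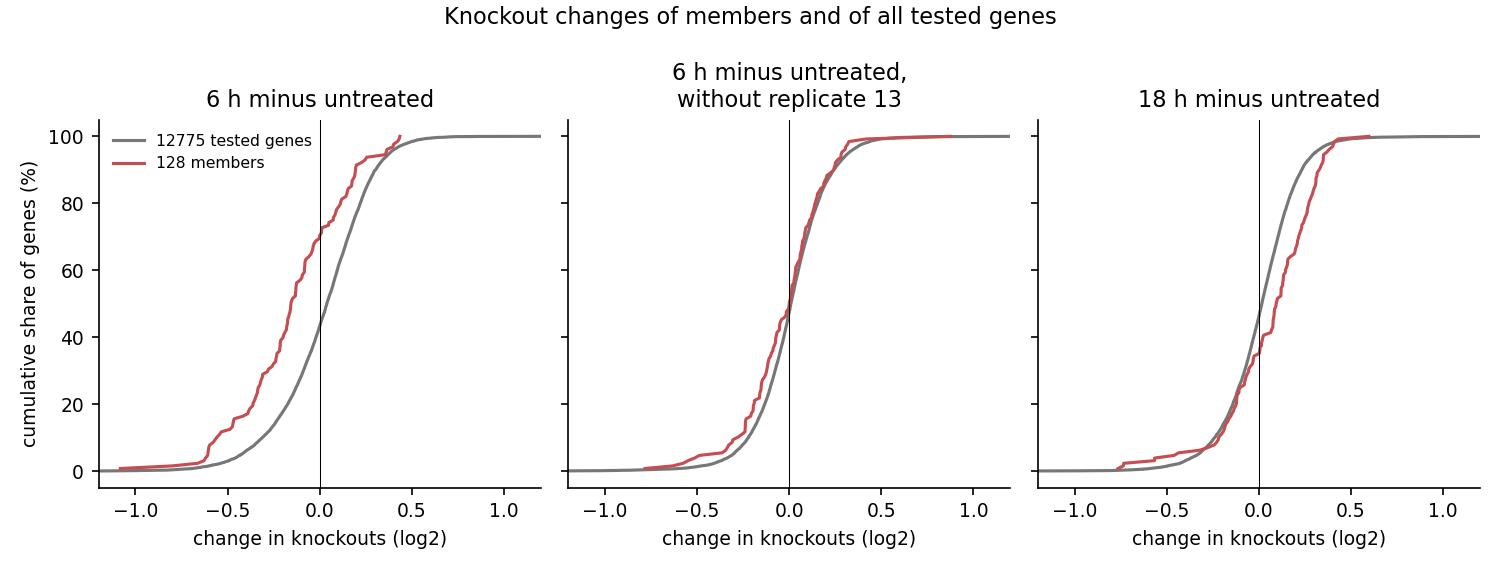
Curves give the cumulative share of genes, in percent, at or below each knockout change on the log2 scale, for the 128 members (red) and the 12775 tested genes (grey), over changes between -1.2 and 1.2. The member curve is left of the grey one at 6 h with all 3 arrays (medians -0.15 and 0.039), close to it without replicate 13 (0.0016 and 0.0092), and right of it at 18 h (0.096 and 0.017).

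Whether the members already differed between the genotypes before treatment was read from the untreated mice. The rule favours genes that are high in the 3 untreated wild-type arrays, and so favours knockouts that lie lower. How much of the difference this makes was not tested, and these values are a description. The median difference was -0.12, beside 0.021 over all tested genes. Lower in knockouts were 88 of 128 members (68.8%, against 44.7% of tested genes). Groups lay apart with knockouts lower in 30 members (23.4%, against 5.65%). Against wild-type mice at 18 h, which the rule ties to the untreated ones, the untreated knockouts had a median of -0.15, and lay apart below them in 39 members (30.5%, against 12.3%).

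In a minority of members the untreated genotypes stood far apart. In 16 members (12.5%, against 1.07% of tested genes) the untreated knockouts were at least 0.7 below untreated wild-type mice, between -2.19 and -0.74, and in 1 member (0.781%, against 1.32%) they were at least 0.7 above, by 1.41. The median log2 level of the 16 was 8.30, 7.97 and 8.04 in untreated wild-type replicates 1, 2 and 19, and 7.21, 7.17 and 7.19 in 6 h replicates 7, 8 and 9. In knockouts it was 7.40, 7.06 and 7.24 untreated, 6.71, 7.17 and 6.95 at 6 h and 7.33, 7.07 and 7.21 at 18 h. Both the wild-type 6 h arrays and the untreated knockouts of the 16 were selected to lie at least 0.7 below the same untreated wild-type arrays, so how near they are to each other is not a finding.

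All 9 knockout arrays lay below all 6 wild-type untreated and 18 h arrays in 13 members, or 10.2%, against 0.83% of tested genes, and 10 of the 13 were among the 16. The wild-type arrays in this count are those of the rule, so it is given as a description. The members of ranks 1 and 4 were among the 16. Within the 16 the knockout change at 6 h had a median of -0.083, and 0.017 without replicate 13.

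In the other 111 members the untreated genotypes were within 0.7 of each other. Their untreated knockouts differed from untreated wild-type mice by a median of -0.072. Their wild-type change at 6 h had a median of -0.87 and their knockout change a median of -0.16, or 0.0001 without replicate 13. At 6 h their level was higher in knockouts than in wild-type mice by a median of 0.66. Over all 128, the 3 knockout 6 h arrays lay above the 3 wild-type 6 h arrays in 67 members (52.3%, against 12.7% of tested genes) and below them in 3 (2.34%, against 11.3%). All 9 knockout arrays lay above the wild-type 6 h arrays in 62 (48.4%, against 5.09%). The wild-type 6 h arrays chose the genes for being low, and the 111 were set apart by their untreated level. The choice thus favours knockouts above the wild type at 6 h, by an amount that was not tested. Their position is given as a description.

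The members varied a little more between mice of a group than other tested genes. The SD within a group of 3 had a median over the members of 0.196 in untreated knockouts and 0.163 in knockouts at 18 h, beside 0.154 and 0.124 over all tested genes. In knockouts at 6 h it was 0.317, beside 0.281, and over the 2 arrays other than replicate 13 it was 0.105, beside 0.0953. Apart from group means, the members barely moved together in the knockouts: over 9 arrays the mean pairwise correlation of their deviations was 0.061, and 0.019 over 8 arrays without replicate 13, beside 0.012 and 0.0041 for all tested genes. The correlations share the arrays and their normalisation, and no test is attached.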

How the data were processed

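Signals were measured on 18 Affymetrix arrays, 3 in each of 6 groups taken from the sample titles. The authors deposited log2 signals, for which the submitters' processing notes name RMA and no version. Array model, probe sets and build: not given in the sources used here. RMA gives no detection call and compresses fold changes of dim genes. Precision is limited by the number of arrays.

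The 128 members, and all lists, were chosen with earlier results of these data known. Reference rows with an Ensembl identifier numbered 0, so the gene lists, markers and promoter motifs chosen by symbol were not analysed here. The naming rule took the 12 largest falls, list members and knockout extremes. It was reduced to 2 identifiers, with ranks for others.

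Genes were tested if at least 3 arrays exceeded 4.79, the 30th percentile of all values (12775 genes). All 18 arrays entered 1 linear model of 6 group means in limma 3.58.1 (lmFit, eBayes) in R 4.3.3, two-sided, with Benjamini-Hochberg adjustment over all tested genes, and was tested on simulated data. Other values were computed with pandas 2.3.3. Groups are apart when no array of one overlaps the other. Alternatives were the filter, prior, array weights, samples fitted, scaling, thresholds of the rule and left-out arrays.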

Additional observations from a re-analysis of the deposited data

How the results depend on the processing

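The number of genes chosen was 193 with a 6 h difference of at most -0.6, and stayed between 95 and 143 under the other thresholds and with centred arrays. Without 1 wild-type array it was between 122 and 181, highest without 6 h replicate 8. In a check chosen after seeing the data, leaving out 1 untreated and 1 6 h array gave between 131 and 196. Without 1 knockout array limma called between 0 and 1 genes at 6 h, between 0 and 2 at 18 h and between 0 and 1 between the times. Among these fits, that without replicate 13 called 1 gene between the times. None of these was a member. With array weights (0.0841 for replicate 13) 22 genes were called at 18 h, 0 of them members, and 455 between the times, 8 of them members, all 8 higher at 18 h. Other filters, prior and scalings, and a fit to the knockout arrays alone, called 0 genes, as with all arrays, where 1038, 657 and 1141 genes had an unadjusted p under 0.05.

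Without 1 knockout array the median change of the members was between -0.23 and 0.0016 at 6 h, the latter without replicate 13, between 0.076 and 0.13 at 18 h, and between 0.093 and 0.26 between the times, the lowest without replicate 13. The knockout change of ENSMUSG00000033826 lay between -0.27 and 0.14 at 6 h and between -0.39 and 0.016 at 18 h; it was 0.0093 and 0.14 at 6 h without untreated replicates 5 and 6, and 0.016 at 18 h without untreated replicate 6. That of ENSMUSG00000033715 lay between -0.67 and 0.17 at 6 h, the latter without replicate 13. At 18 h it lay between -0.62 and -0.29, negative throughout. Between the times it lay between -0.63 and 0.21, with 0.055 without replicate 14 and 0.21 without replicate 15. No alternative called either gene. Centring the arrays or quantile normalisation moved each of the 3 medians by less than the spread between arrays. The cause was not tested. No paired analysis was possible because the labels number each array once and no groups share a replicate number.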
